A study of Mus musculus with 40 samples.

Results

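The genes through which a growing mouse oocyte signals to, and is joined with, its granulosa cells were followed across oocytes that lack the H3K9 methyltransferase G9A (Ehmt2), alone or together with its partner GLP (Ehmt1). They are 8 genes: the ligands Gdf9, Bmp15, Bmp6 and Fgf8, the receptors Kit and Igf1r, and the connexins Gja4 and Gja1. They were chosen by name for their role, as the loci of the RNA table that overlap the named gene on its own strand. That rule found 9 loci, since Gdf9 has an upstream and a main one, among 38540 assembled loci, of which 15023 carry a gene name on their strand. The main locus stands for Gdf9 unless the upstream one is named. A locus with a mean of at least 10 RPM (reads scaled to a common library total) over the 11 RNA libraries is called detected here, which held for 9091 loci and for 7 of the 8 genes, with Gja1 below it.

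As background, GDF9 and BMP15 are secreted by the oocyte and act through BMPR2 and type I receptors on granulosa cells, where SMAD proteins carry the signal; they are known for driving granulosa cell growth and cumulus expansion. BMP6 is a related ligand, and FGF8 acts with BMP15 to raise glycolysis in cumulus cells. In the other direction, KIT on the oocyte receives KIT ligand from granulosa cells and feeds PI3K and AKT signalling, and IGF1R is a receptor tyrosine kinase for insulin-like growth factors. GJA4 (connexin 37) forms the gap junctions between oocyte and granulosa cells, while GJA1 (connexin 43) mainly joins granulosa cells to each other.

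All libraries came from germinal vesicle oocytes dissected from ovaries of mice aged 22 to 25 days, with 100 to 200 oocytes in a sample. RNA was measured in 3 G9a knockout libraries (G9a cKO), 3 controls whose titles start with GKAO, as those of the G9a cKO libraries do, 2 G9a and Glp double knockout libraries (cDKO), and 3 controls whose titles start with GKAQ, as those of the cDKO libraries do. H3K9me2, the histone mark both enzymes deposit, was measured by low-input native ChIP in 2 libraries each of control, G9a cKO and cDKO oocytes. The Cre driver and the exact alleles of the controls are not given in the sources used here. Neither is whether the libraries of a group came from separate mice, so the p-values speak only for these samples. Each mutant was compared with the controls of its own title series, with limma across all 38540 loci and Benjamini-Hochberg adjustment, and the same fit tested whether the 2 effects differed. A gene is said to have risen or fallen where its adjusted p was under 0.05. In bulk samples, less RNA per oocyte and a changed share of other cells cannot be told apart.

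RNA libraries held 1458868 to 2399680 reads on the loci. All 10 oocyte markers were matched. Their sums were 10951 to 11320 RPM in the GKAO controls and 11848 to 12351 in G9a cKO. They were 8715 to 9292 in the GKAQ controls and 9673 to 10023 in cDKO, so no groups overlapped. Nlrp5 and Zp2 were the most abundant of these markers. Without them the sums were 4293 to 4485 RPM in the GKAO controls and 4317 to 4482 in G9a cKO, which overlapped. In the GKAQ controls they were 3789 to 4096 and in cDKO 4154 to 4278, which did not overlap. Among the oocyte markers Zp2 and Zp3 rose in cDKO by 0.32 and 0.36 on the log2 scale (adjusted p = 2.85e-09 and 2.77e-08). Ddx4, Oosp1 and Nlrp5 rose there by 0.46, 0.32 and 0.13 (adjusted p = 0.0405, 0.00277 and 0.0183). Dppa3 fell by 0.41 (adjusted p = 1.51e-05), and the other markers were not called. In G9a cKO Nlrp5 rose by 0.21 (adjusted p = 2.0e-07), Zp2 rose by 0.15 (adjusted p = 0.0332) and Dppa3 fell by 0.36 (adjusted p = 8.38e-05). The GKAQ controls differed from the GKAO controls by -1.04 (Zp2), -0.68 (Zp3), -0.90 (Oosp1) and 1.05 (Dppa3). Each of these is larger than the mutant effects on that gene. For Nlrp5 and Ddx4 the control difference was -0.13 and -0.08. These markers were named after their values were seen, and their part in the changes of Gdf9 and Kit below was not tested. Of 18 granulosa markers 15 were matched, with 121 to 199 RPM in sum and 2 of them at no more than 3 reads in every library. Of 6 theca and stroma markers 5 were matched, with 0 to 5.0 RPM in sum; Col1a2 and Lum were at 0 reads throughout, Col1a1 and Cyp17a1 at no more than 1 read, and Dcn reached 11 reads. Of 6 blood markers only Hba-a1 was matched, at 0 reads throughout. Ehmt2 itself was thinly covered: 12, 13 and 9 reads in the GKAO controls against 5, 11 and 2 in G9a cKO, and 8, 30 and 16 in the GKAQ controls against 5 and 5 in cDKO. Neither change of Ehmt2 passed the test (log2 difference -1.55, adjusted p = 0.0971, and -1.45, adjusted p = 0.121), and the library labelled G9a cKO replicate 2 lay within the range of its controls. The part of Ehmt2 that was deleted is not given in the sources used here, so its level is a weak check of the labels. Ehmt1 fell in cDKO by 2.06 on the log2 scale (adjusted p = 1.09e-21).

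The promoters of Bmp15, Kit and Igf1r differ widely in CpG content. They are printed because Bmp15 and Igf1r mark its low and high ends among these genes and Kit is the receptor that fell in cDKO. Each is the 250 bases before the RefSeq start (GRCm38.p6), with matches to CANNTG (an E-box), TAATTG and GGGCGG (a GC box), searched on both strands, in capitals.
Bmp15, chrX:6320725-6320974, minus strand: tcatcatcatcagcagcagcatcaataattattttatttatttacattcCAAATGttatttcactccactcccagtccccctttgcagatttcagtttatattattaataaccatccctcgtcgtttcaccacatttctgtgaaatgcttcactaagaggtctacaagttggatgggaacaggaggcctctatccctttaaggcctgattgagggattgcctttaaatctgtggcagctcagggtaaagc
Kit, chr5:75574737-75574986, plus strand: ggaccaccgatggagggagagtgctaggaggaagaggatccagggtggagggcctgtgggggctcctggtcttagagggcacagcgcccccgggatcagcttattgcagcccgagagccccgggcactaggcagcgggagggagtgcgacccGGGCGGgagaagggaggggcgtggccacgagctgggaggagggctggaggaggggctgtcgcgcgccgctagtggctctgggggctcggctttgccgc
Igf1r, chr7:67952007-67952256, plus strand: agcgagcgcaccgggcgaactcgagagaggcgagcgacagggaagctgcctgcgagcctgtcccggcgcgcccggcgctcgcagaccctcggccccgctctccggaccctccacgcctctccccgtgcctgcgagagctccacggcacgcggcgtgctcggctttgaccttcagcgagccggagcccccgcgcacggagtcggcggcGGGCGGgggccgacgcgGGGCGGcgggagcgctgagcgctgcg

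The Bmp15 stretch holds 2 CpG, and 18.8% of 32851 RefSeq promoters of that length hold fewer; it has 1 CANNTG match and 1 TATAAA match, which is not capitalised. The Kit stretch holds 17 CpG (76.5% of promoters hold fewer), 1 GGGCGG and no CANNTG. The Igf1r stretch holds 42 CpG (99.1% hold fewer) and 2 GGGCGG. RefSeq promoter entries were found for 6 of the 8 genes, and the others hold 22 CpG (Bmp6), 9 (Gja4) and 6 (Gja1), where the median of all promoters is 6. CANNTG occurs in 66.2% of all promoters, TAATTG in 7.17%, TATAAA in 12.4% and GGGCGG in 32.7%; TAATTG was in none of the entries of these genes. A match describes the letters in the window and not a bound site.

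The authors' oocyte loci did not always begin where RefSeq does. The Gja1 locus has the RefSeq bounds exactly (chr10:56377300-56390419, plus strand). The loci of Bmp6 (chr13:38340652-38500371, plus strand), Bmp15 (chrX:6309243-6323303, minus strand), Igf1r (chr7:67951504-68233665, plus strand), Gja4 (chr4:127311418-127314647, minus strand) and Kit (chr5:75574466-75656741, plus strand) begin 5064, 2579, 753, 608 and 521 bases upstream of the RefSeq start. In those genes the printed or counted promoter therefore lies inside the oocyte transcript as assembled. The main Gdf9 locus (chr11:53433268-53437904, plus strand) starts 2494 bases inside the RefSeq gene and ends at its last base, and the Fgf8 locus (chr19:45736859-45742212, minus strand) starts 729 bases inside.

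After loss of G9A alone, none of the 8 genes changed by the test, beside 1.79% of all loci and 5.22% of detected loci that did. Their median difference was 0.02 on the log2 scale (0.01 over detected loci), and the median size of the difference, sign aside, was 0.06 against 0.19 over detected loci. After joint loss of G9A and GLP, Gdf9 and Kit fell and no member rose. That is 2 of 8, beside 6.34% of all loci called in either direction, 2.02% of all loci called lower, and 15.8% of detected loci called in either direction and 7.18% called lower. The median difference of the 8 genes in cDKO was 0.12 (0.05 over detected loci) and its median size 0.23 (0.27 over detected loci). Gdf9 and Kit also passed the test for a difference between the 2 effects, where 1.08% of all loci and 3.34% of detected loci did, and 0.397% of all loci with the lower value in cDKO. Without GKAQ control replicate 1 the number of loci called for that difference went from 417 to 14705 (38.2%), including all 8635 loci without a read in any library; among detected loci it went from 3.34% to 9.86%. Gdf9 and Kit were called there too (adjusted p = 0.00186 and 0.00859). The 2 effects rest on separate controls. Of the 2444 loci called in cDKO, 1665 were higher; centring the libraries on detected loci gave 1290 higher of 2430, and the calls on the 8 genes were the same.

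**Figure D1:**
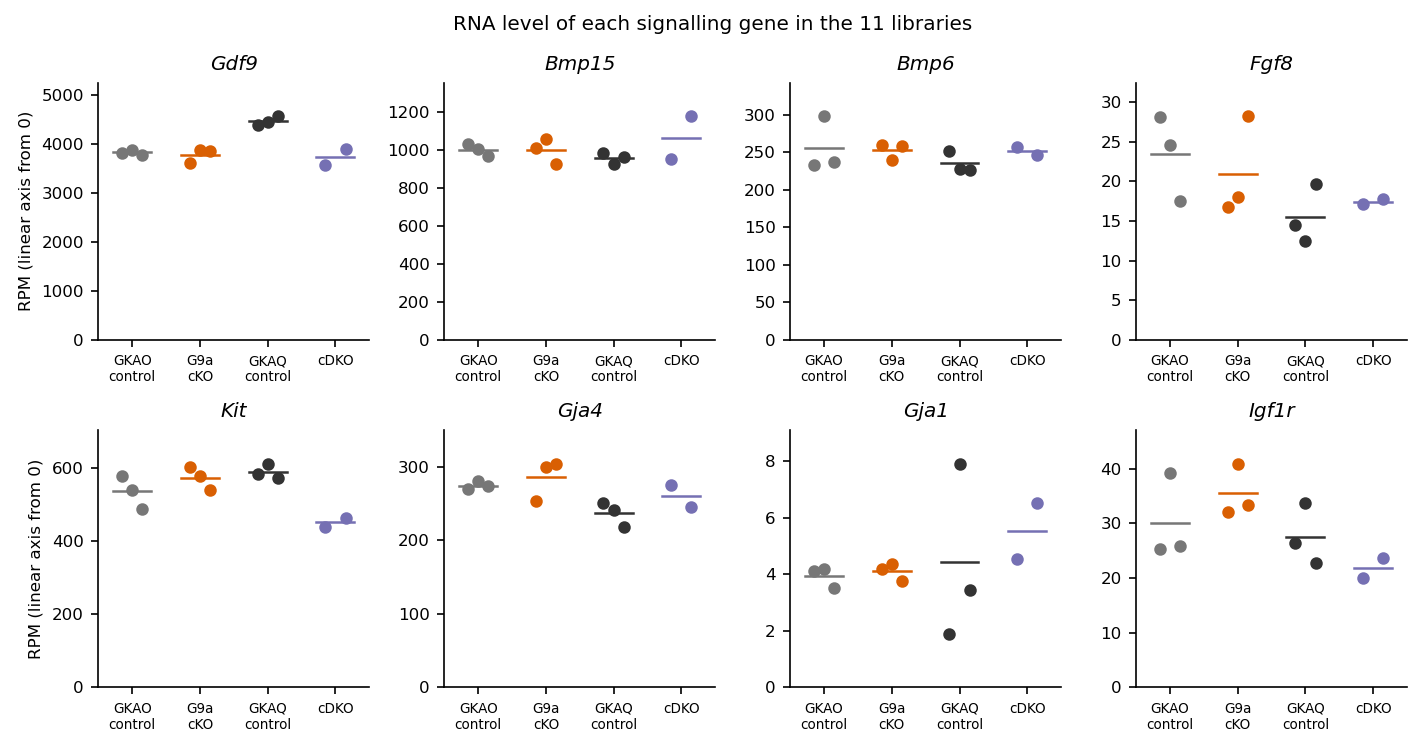
Level of each gene in every RNA library, in RPM on a linear axis from 0, 1 panel per gene, with a point per library and a line at the group mean. The 2 cDKO libraries lie below all 9 others for Kit, and the 3 GKAQ controls lie above all 8 others for Gdf9.

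Gdf9 (ENSMUSG00000018238) is the oocyte's growth differentiation factor. Its main locus stood at 3810, 3874 and 3776 RPM in the GKAO controls and at 3595, 3862 and 3841 RPM in G9a cKO. It stood at 4388, 4432 and 4562 RPM in the GKAQ controls and at 3559 and 3882 RPM in cDKO. The cDKO libraries were thus below their own controls but on either side of the GKAO controls, and the GKAQ controls were above every other library. In G9a cKO the difference was -0.02 on the log2 scale (SE 0.03, adjusted p = 0.678), a ratio with a 95% interval of 0.941 to 1.03. In cDKO Gdf9 fell by 0.26 (SE 0.04, adjusted p = 1.09e-09), to 0.833 of its controls (0.792 to 0.877). The 2 effects differed by -0.24 (SE 0.05, adjusted p = 0.000753), and the GKAQ controls exceeded the GKAO controls by 0.22 (SE 0.03, adjusted p = 9.23e-09). Gdf9 was the only 1 of the 8 genes called between the control series, beside 3.87% of all loci and 14.8% of detected loci. With all 6 controls taken as 1 group, the difference between the 2 effects on Gdf9 came to -0.02 (adjusted p = 0.827) and G9a cKO was called lower as well (-0.13, adjusted p = 0.0361). Without cDKO replicate 1 the 2 effects on Gdf9 no longer differed by the test (-0.18, adjusted p = 0.0609). No call on Gdf9 remained when the variances were moderated without trend and robust weighting (cDKO adjusted p = 0.449).

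The upstream Gdf9 locus (chr11:53431314-53433047, plus strand) held 1 to 15 reads a library. It overlaps a minus-strand locus of 0 to 8 reads, and whether the counting used strand is not given in the sources used here. It changed in neither mutant (adjusted p = 0.747 and 0.608). It was higher in the GKAQ than in the GKAO controls by 2.00 on the log2 scale (adjusted p = 0.0337), with 7 to 15 against 1 to 7 reads.

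Bmp15 (ENSMUSG00000023279), the X-linked partner of GDF9, stood at 1030, 1005 and 971 RPM in the GKAO controls and at 1008, 1060 and 926.7 RPM in G9a cKO. It stood at 982.3, 928.5 and 960.7 RPM in the GKAQ controls and at 952 and 1179 RPM in cDKO. The value of 1179 is the highest of all 11 libraries, while the other cDKO library lies among the controls. The difference was -0.01 in G9a cKO (SE 0.06, adjusted p = 0.946, ratio interval 0.920 to 1.08) and 0.15 in cDKO (SE 0.06, adjusted p = 0.188, interval 1.01 to 1.21). The cDKO value turned on 1 library: without cDKO replicate 1 it was 0.30 (adjusted p = 0.00421), and without cDKO replicate 2 it was -0.01 (adjusted p = 0.947). So in cDKO the 2 partner ligands stood at 0.833 (Gdf9) and 1.11 (Bmp15) of their controls.

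Bmp6 (ENSMUSG00000039004) stood at 233.1, 298 and 236.7 RPM in the GKAO controls and at 259.7, 239.8 and 257.6 RPM in G9a cKO. It stood at 250.8, 227.9 and 226.2 RPM in the GKAQ controls and at 256.8 and 246 RPM in cDKO. All groups overlapped. The differences were -0.01 (SE 0.10, adjusted p = 0.947) and 0.10 (SE 0.11, adjusted p = 0.570), with ratio intervals of 0.866 to 1.14 and 0.920 to 1.25. The last bases of its locus overlap the minus-strand Txndc5 locus, which held 515 to 929 reads.

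Fgf8 (ENSMUSG00000025219) was counted from 23 to 60 reads a library. It stood at 28.1, 24.61 and 17.58 RPM in the GKAO controls, at 16.7, 18.03 and 28.25 RPM in G9a cKO, at 14.46, 12.5 and 19.72 RPM in the GKAQ controls, and at 17.08 and 17.78 RPM in cDKO. G9a cKO spanned the range of its controls, and the cDKO libraries lay inside theirs. The differences were -0.17 (SE 0.28, adjusted p = 0.686) and 0.19 (SE 0.31, adjusted p = 0.691). The ratio intervals, 0.606 to 1.30 and 0.744 to 1.75, are wide, so a change of the size seen for Gdf9 or Kit was not detectable at this depth.

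Kit (ENSMUSG00000005672), the receptor for KIT ligand, stood at 578.5, 538.9 and 488.1 RPM in the GKAO controls and at 601.6, 578 and 539.6 RPM in G9a cKO. It stood at 581.4, 611.3 and 570.8 RPM in the GKAQ controls and at 439 and 462.4 RPM in cDKO. Both cDKO libraries were below every other library, including the controls of the other series. Group means were 588 ± 21.0 RPM (SD, n = 3) for the GKAQ controls and 451 ± 16.5 RPM (SD, n = 2) for cDKO. Kit fell in cDKO by 0.38 on the log2 scale (SE 0.08, adjusted p = 0.000186), to 0.767 of its controls (0.686 to 0.857). In G9a cKO the difference was 0.10 (SE 0.07, adjusted p = 0.327, ratio interval 0.971 to 1.18). The 2 effects differed by -0.48 (SE 0.11, adjusted p = 0.003), and the control series differed by 0.14 (adjusted p = 0.454). Kit was called in cDKO under 18 of 19 alternatives, with differences from -0.48 to -0.31; without trend and robust weighting the adjusted p was 0.261. Among detected loci, 21.2% had both cDKO libraries below all their controls.

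Igf1r (ENSMUSG00000005533) was counted from 35 to 81 reads. It stood at 25.36, 39.28 and 25.78 RPM in the GKAO controls and at 32.15, 40.97 and 33.43 RPM in G9a cKO. It stood at 26.4, 33.75 and 22.67 RPM in the GKAQ controls and at 19.93 and 23.71 RPM in cDKO. In cDKO 1 library was below all its controls and the other above the lowest of them. The differences were 0.26 (SE 0.24, adjusted p = 0.440, ratio interval 0.868 to 1.65) and -0.33 (SE 0.26, adjusted p = 0.565, interval 0.557 to 1.14). The 2 effects on Igf1r differed by -0.58 (SE 0.35, adjusted p = 0.226).

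Gja4 (ENSMUSG00000050234), the oocyte's gap junction connexin, stood at 269.4, 280.7 and 274.2 RPM in the GKAO controls and at 253.4, 300.5 and 304.7 RPM in G9a cKO. It stood at 250.8, 240.9 and 218.4 RPM in the GKAQ controls and at 275 and 246 RPM in cDKO. Every GKAQ control was below every GKAO control, as in 18% of detected loci, but the difference of -0.22 did not pass (adjusted p = 0.303). Mutants overlapped their own controls, with differences of 0.05 (SE 0.10, adjusted p = 0.717, ratio interval 0.910 to 1.18) and 0.14 (SE 0.11, adjusted p = 0.565, interval 0.950 to 1.28).

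Gja1 (ENSMUSG00000050953) held 3 to 19 reads a library. It stood at 4.113, 4.19 and 3.516 RPM in the GKAO controls, at 4.175, 4.37 and 3.767 RPM in G9a cKO, at 1.885, 7.918 and 3.45 RPM in the GKAQ controls, and at 4.555 and 6.521 RPM in cDKO. The GKAQ controls alone spanned the full range of all 11 libraries. The differences were 0.06 (SE 0.53, adjusted p = 0.949) and 0.55 (SE 0.59, adjusted p = 0.565), and ratio intervals of 0.511 to 2.13 and 0.660 to 3.25 are the widest of the 8 genes. The granulosa markers other than Nr5a2 and Cyp19a1, the most abundant of them here, summed to 29.5, 27.8 and 28.1 RPM in the GKAO controls, 25.9, 26.8 and 25.0 RPM in G9a cKO, 14.5, 27.9 and 19.2 RPM in the GKAQ controls and 34.2 and 36.2 RPM in cDKO. Over all 15 matched markers the sums were 189 to 199, 139 to 167, 135 to 163 and 121 to 149 RPM in that order. The library lowest in Gja1 is also lowest in the shorter sum. The library highest in Gja1, a GKAQ control, is not highest in that sum, and the lowest sum over all 15 markers is in cDKO. The part of other cells in the Gja1 level was not tested.

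**Figure D2:**
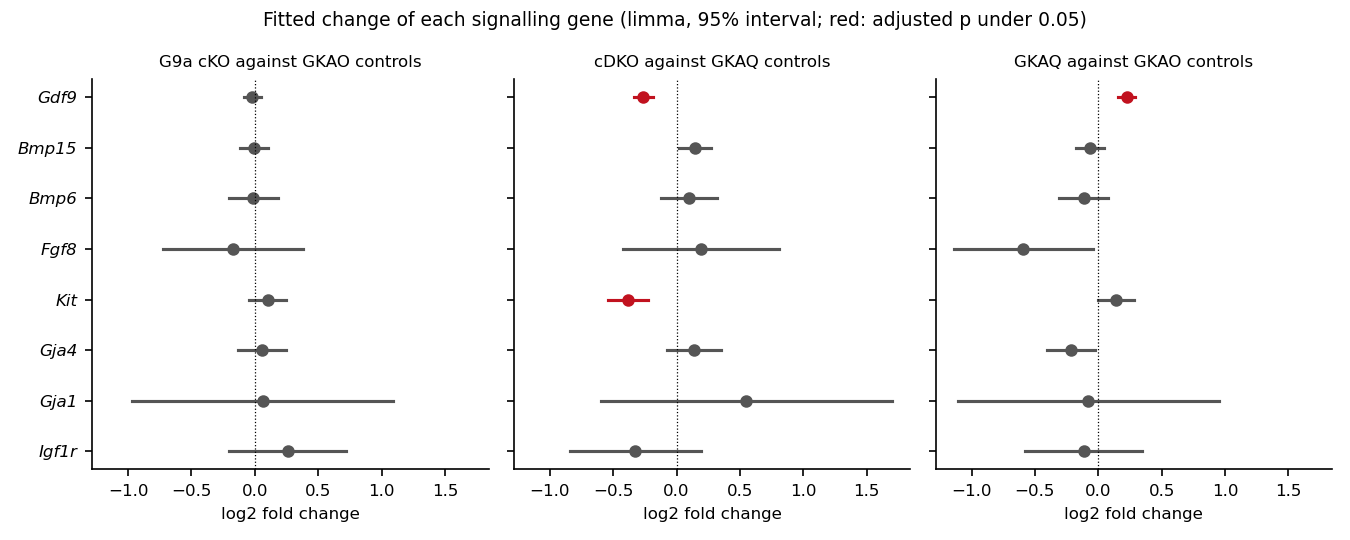
Log2 difference of each gene in G9a cKO and in cDKO from the controls of the same title series, and of the GKAQ from the GKAO controls, with 95% intervals from limma as lines and called genes in red. Gdf9 and Kit in cDKO are called, at -0.26 and -0.38, as is Gdf9 between the controls, and the interval of Gja1 is the widest.

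The 8 genes did not move as 1 unit across libraries. Pearson's r between pairs of them over the 11 libraries ran from -0.64 (Gdf9 and Gja4) to 0.56 (Kit and Igf1r). The median was -0.03 over 28 pairs. Several libraries share a title number and all share a normalisation, so these values are descriptions. Relative to their own level the ligands Bmp15 and Gdf9 varied least, with a highest to lowest ratio of 1.27 and 1.28, followed by Bmp6 (1.32), Kit (1.39) and Gja4 (1.40). The genes with few reads varied more, by 2.06 (Igf1r), 2.26 (Fgf8) and 4.20 (Gja1). Among 6939 named detected loci, the most alike over the 11 libraries were Bpgm (r = 0.971) and Cnot10 (0.935) for Gdf9, and Rere (0.965) and Daf2 (0.943) for Kit. For Gja4 they were Wdr48 (0.948) and Afg3l2 (0.921), for Igf1r Sugp1 (0.914) and Map4k2 (0.861), and for Bmp15 Zscan12 (0.869) and Gtdc1 (0.826). For Fgf8 they were Lrrc57 (0.860) and Tmem214 (0.857), and for Bmp6 Gripap1 (0.845) and Ptma (0.829). For each gene these are the highest of 6939 values over only 11 libraries, and they were not tested against chance.

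The wider pathways were taken as 6 lists, of which 82 genes were matched in the table and 40 were detected. In G9a cKO 3 of the 82 rose and 2 fell. In cDKO 7 rose and 7 fell, but among the 40 detected genes 2 rose and 6 fell. As shares of the matched genes these are 6.1% and 17.1%; among the 40 detected genes they are 10% and 20%, beside the 5.22% and 15.8% of all detected loci. The median difference of the 82 was 0.03 in G9a cKO and 0.14 in cDKO, and of the 40 detected it was 0.12 and 0.02.

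**Figure D3:**
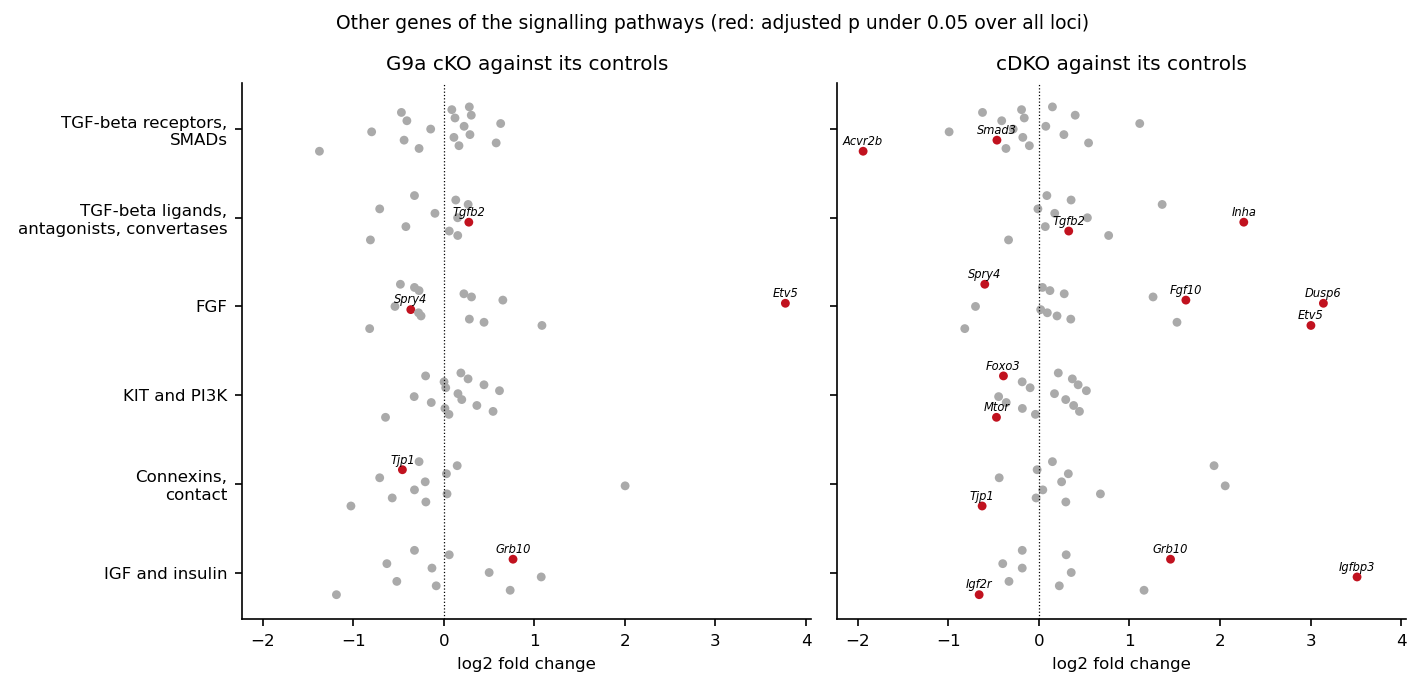
Log2 difference in G9a cKO and cDKO of every matched gene of the 6 pathway lists, with called genes in red and named. Most genes of each list are not called, and the points farthest to the right are genes whose controls hold few or no reads, so that their fitted difference depends on the value given to an empty locus.

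Receptors and SMADs of the TGF-beta superfamily, the machinery that GDF9 and BMP15 use, had 17 of 19 genes matched; none changed in G9a cKO and 2 fell in cDKO. Smad3, the effector of activin and GDF9 signalling, stood at 292.9, 309.2 and 334.7 RPM in the GKAQ controls and at 203.3 and 251.9 RPM in cDKO, and fell by 0.46 (adjusted p = 0.00146). The GKAO controls, at 232.4, 256.6 and 234.4 RPM, lay on the level of the cDKO libraries, and without cDKO replicate 1 the call was lost (-0.31, adjusted p = 0.222). With the title number as a term, which lets the cDKO effect rest on 1 pair of libraries, the Smad3 call was also lost (-0.295, adjusted p = 0.323). Pooled controls (adjusted p = 0.205), log2(RPM + 1) (0.0614) and a fit without trend and robust weighting (0.204) lost it too. Acvr2b, an activin type II receptor, fell by 1.94 (adjusted p = 0.0128) on 12 to 26 reads in the controls and 6 and 3 in cDKO. That call held in 11 of 19 alternatives. It was lost without GKAQ control replicate 1 (-1.70, adjusted p = 0.106) or 3 (-1.72, adjusted p = 0.114). The title number as a term (-1.49, adjusted p = 0.323) and pooled controls (-1.31, adjusted p = 0.131) lost it. So did precision weights (adjusted p = 0.277), log2(RPM + 1) (0.289) and a fit without trend and robust weighting (0.282). Without cDKO replicate 2, which leaves 1 cDKO library, the Acvr2b difference was -1.47.

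Among other ligands, antagonists and convertases 11 of 24 were matched, and Tgfb2 rose in both mutants. Tgfb2 stood at 941.1, 913.3 and 846.8 RPM in the GKAO controls and 1150, 1022 and 1102 RPM in G9a cKO (0.28, adjusted p = 0.0025), and at 466.3, 507.6 and 505.7 RPM in the GKAQ controls and 653.7 and 587.5 RPM in cDKO (0.33, adjusted p = 0.000271). Its level differed far more between the control series (-0.87, adjusted p = 5.81e-38), and with all controls pooled its cDKO difference was -0.10. The Tgfb2 call held in 14 of 19 alternatives in each mutant. In G9a cKO it was lost without G9a cKO replicate 1 (0.24, adjusted p = 0.0732) or GKAO control replicate 3 (0.23, adjusted p = 0.0648). Pooled controls (adjusted p = 0.338), log2(RPM + 1) (0.186) and a fit without trend and robust weighting (0.279) lost it there too. In cDKO it was lost with the title number as a term (0.21, adjusted p = 0.323) or pooled controls (adjusted p = 0.887). Log2(RPM + 1) (adjusted p = 0.0593) and a fit without trend and robust weighting (0.337) also lost it in cDKO. Without cDKO replicate 1, which leaves 1 cDKO library, the Tgfb2 difference was 0.25. Inha, the inhibin alpha subunit made by granulosa cells, rose in cDKO by 2.26 (adjusted p = 0.00472), and its effects differed by 3.07 (adjusted p = 0.0182). It did so on 12 and 17 reads against 2, 10 and 2, and the GKAO controls held 8, 14 and 11. The Inha call held in 14 of 19 alternatives. It was lost without GKAQ control replicate 3 (1.86, adjusted p = 0.0599) or with the title number as a term (1.27, adjusted p = 0.355). Pooled controls (1.32, adjusted p = 0.163) and log2(RPM + 1) (1.71, adjusted p = 0.0653) lost it too. Without cDKO replicate 2, which leaves 1 cDKO library, the Inha difference was 1.98. The difference between the Inha effects was lost without GKAQ control replicate 3 (2.67, adjusted p = 0.0905) or GKAO control replicate 2 (2.97, adjusted p = 0.0526). The title number as a term (2.12, adjusted p = 0.151) and pooled controls (1.19, adjusted p = 0.38) lost it. So did precision weights (adjusted p = 0.0554), log2(RPM + 1) (0.206) and a fit without trend and robust weighting (0.145). Without cDKO replicate 2 it was 2.79. Inha is itself on the granulosa marker list. The 12 matched markers other than Inha, Nr5a2 and Cyp19a1 summed to 24.0, 20.4 and 21.7 RPM in the GKAO controls, 22.5, 22.9 and 21.2 in G9a cKO, 13.2, 23.8 and 18.2 in the GKAQ controls and 27.3 and 26.1 in cDKO. They are highest in cDKO, while the sums of the whole list are not, and their part was not tested.

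Of the FGF pathway 15 of 20 genes were matched, and 2 changed in G9a cKO and 4 in cDKO. Spry4, a feedback inhibitor of receptor tyrosine kinase signalling, fell in both. It stood at 355.1, 361.3 and 324.1 RPM in the GKAO controls and 335.6, 253.5 and 229.3 RPM in G9a cKO, which overlap (-0.36, adjusted p = 0.00474). It stood at 489, 418.4 and 422.4 RPM in the GKAQ controls and 339.4 and 251.9 RPM in cDKO (-0.60, adjusted p = 2.81e-07). The call on Spry4 in cDKO was lost with log2(RPM + 1) (-0.595, adjusted p = 0.137) or precision weights (-0.573, adjusted p = 0.0548). It was also lost without trend and robust weighting (-0.596, adjusted p = 0.214). The call on Spry4 in G9a cKO was lost in 8 of 19 alternatives, among them without GKAO control replicate 2 (-0.33, adjusted p = 0.0566), G9a cKO replicate 2 (-0.32, adjusted p = 0.0926) or G9a cKO replicate 3 (-0.25, adjusted p = 0.289), and with the title number as a term (-0.26, adjusted p = 0.114). Etv5, an ETS factor induced by FGF signals, rose in both mutants. It held 2, 1 and 0 reads in the GKAO controls against 29, 31 and 10 in G9a cKO (adjusted p = 2.33e-09), and 5, 5 and 6 in the GKAQ controls against 43 and 32 in cDKO (3.00, adjusted p = 4.61e-05). The Etv5 call in G9a cKO was lost with log2(RPM + 1) (2.85, adjusted p = 0.0736). In cDKO it held in all 19 alternatives. Fgf10, a ligand of FGFR2, rose in cDKO by 1.62 (adjusted p = 0.0153), on 22 and 31 reads against 14, 11 and 6. The Fgf10 call held in 13 of 19 alternatives. It was lost without GKAQ control replicate 2 (1.57, adjusted p = 0.0542) or 3 (1.26, adjusted p = 0.169). The title number as a term (2.00, adjusted p = 0.199) and log2(RPM + 1) (1.43, adjusted p = 0.114) lost it. So did a fit without trend and robust weighting (1.62, adjusted p = 0.0945). Without cDKO replicate 2, which leaves 1 cDKO library, the Fgf10 difference was 1.35. Dusp6, an ERK phosphatase, was also called higher in cDKO (adjusted p = 0.000949) on 5 and 11 reads against 0, 1 and 1; it is named because it completes the list, after its values were seen.

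Of the KIT and PI3K list 16 of 19 genes were matched, none changed in G9a cKO, and 2 fell in cDKO. Foxo3, the forkhead factor that AKT restrains and that holds follicles dormant, stood at 382.8, 475.9 and 411.6 RPM in the GKAQ controls and at 332.5 and 311.2 RPM in cDKO. It fell by 0.39 (adjusted p = 0.00115), and its effects in the 2 mutants differed by -0.45 (adjusted p = 0.036). Mtor, the kinase of the growth-promoting complexes downstream of AKT, fell by 0.47 (adjusted p = 0.0199), from 152.1, 157.5 and 137 RPM to 113.3 and 102 RPM. The Foxo3 call in cDKO held in 15 of 19 alternatives. It was lost without GKAQ control replicate 2 (-0.30, adjusted p = 0.0745) or with precision weights (-0.414, adjusted p = 0.0838). Log2(RPM + 1) (-0.389, adjusted p = 0.149) and a fit without trend and robust weighting (-0.39, adjusted p = 0.328) lost it too. The Mtor call held in 11 of 19 alternatives. It was lost without GKAQ control replicate 1 (-0.45, adjusted p = 0.0718) or 2 (-0.43, adjusted p = 0.116). The title number as a term (-0.63, adjusted p = 0.0987) and pooled controls (-0.432, adjusted p = 0.0613) lost it. So did precision weights (adjusted p = 0.0832), log2(RPM + 1) (0.147) and a fit without trend and robust weighting (0.271). Without cDKO replicate 2, which leaves 1 cDKO library, the Mtor difference was -0.39. The difference between the effects on Foxo3 was lost without any 1 of 7 libraries: G9a cKO replicate 1 (-0.37, adjusted p = 0.231) or 2 (-0.43, 0.0953), GKAO control replicate 2 (-0.46, 0.0505) or 3 (-0.40, 0.128), GKAQ control replicate 2 (-0.36, 0.299) or 3 (-0.47, 0.071), and cDKO replicate 2 (-0.40, 0.103). Among processing settings, that Foxo3 difference was lost with a filter of at least 1 RPM (adjusted p = 0.0765) and with log2(RPM + 1) (0.481). It was also lost with precision weights (adjusted p = 0.249) and without trend and robust weighting (0.232). Foxo3 and Mtor, like Kit, were lower in both cDKO libraries than in every control of their series, as were 21.2% of detected loci. Of the matched genes of this list 12.5% were called in cDKO, beside 15.8% of detected loci. The median difference of the list in cDKO was 0.07.

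Of the connexin and contact list 12 of 19 genes were matched, and Tjp1 was called in both mutants. Tjp1 encodes the junction scaffold ZO-1, which binds connexins. It stood at 329.7, 318.4 and 315.3 RPM in the GKAO controls and 227.9, 229.4 and 244.9 RPM in G9a cKO, and fell by 0.46 (adjusted p = 0.000464). It stood at 306.7, 321.3 and 311.5 RPM in the GKAQ controls and 191.9 and 214.6 RPM in cDKO, and fell by 0.63 (adjusted p = 9.68e-07). The control series did not pass the test for Tjp1 (-0.04, adjusted p = 0.807), all 5 mutant libraries lay below all 6 controls, and it stayed called in cDKO under all 19 alternatives and in G9a cKO under 18.

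Of the IGF and insulin list 11 of 14 genes were matched. Grb10, an adaptor that dampens IGF1R and insulin receptor signalling and is an imprinted gene, rose in both mutants. It stood at 38.39, 52.37 and 29.89 RPM in the GKAO controls and 73.48, 75.39 and 53.21 RPM in G9a cKO (0.76, adjusted p = 0.0188). It stood at 23.25, 17.09 and 18.24 RPM in the GKAQ controls and 67.76 and 41.5 RPM in cDKO (1.45, adjusted p = 7.58e-08). Its level was lower in the GKAQ than in the GKAO controls (-1.02, adjusted p = 8.54e-05). Whether the mutants differed in their effect on it did not pass the test (0.69, adjusted p = 0.169). The Grb10 call in G9a cKO held in 12 of 19 alternatives. It was lost without GKAO control replicate 1 (0.75, adjusted p = 0.063) or 3 (0.57, adjusted p = 0.281). Leaving out G9a cKO replicate 1 (0.69, adjusted p = 0.158) or 2 (0.68, adjusted p = 0.128) lost it. So did precision weights (adjusted p = 0.182), log2(RPM + 1) (0.401) and a fit without trend and robust weighting (0.279). Igf2r, the clearance receptor for IGF2, fell in cDKO by 0.66 (adjusted p = 0.000217), from 189.2, 185.9 and 177.9 RPM to 127 and 107.3 RPM. The GKAO controls also stood at that level (138.5, 132.5 and 110.2 RPM). The Igf2r call was lost with all controls pooled (-0.387, adjusted p = 0.119) or log2(RPM + 1) (-0.654, adjusted p = 0.126). It was also lost without trend and robust weighting (-0.659, adjusted p = 0.181). Igfbp3, an IGF binding protein, is named after its values were seen: it was called in cDKO (adjusted p = 0.000723) with 8 and 10 reads against 0 in each GKAQ control, while the GKAO controls held 0, 4 and 1. With the title number as a term that call was lost (adjusted p = 0.0827).

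H3K9me2 was read over the genes as the share of each library's reads in the 10 kb windows that a locus touches, so a change in the total amount of the mark cannot be seen. The series also holds 2 input libraries each of control, G9a cKO and cDKO, and 2 IgG controls. They were not used, so the shares are not corrected for background. The 6 libraries held 1109191 to 19128881 reads, with the 2 controls the deepest. In controls the 8 genes were near or below the middle of the genome, with 20.7% (Gdf9) to 50.1% (Igf1r) of windows lower. There the mean over a gene's windows, 1 for Gdf9 and 29 for Igf1r, was ranked among single windows. A mean over many windows tends to lie nearer the middle, so these percentages are not alike across genes. None of the 65 windows over the genes was called in G9a cKO, where 1.85% of 255057 windows were (4730, and 0 to 13614 with a library left out, with none over the genes except 2 without G9a cKO replicate 1). None was called in cDKO, where the same limma fit called 0 of 255057 windows (0%). That 0 became 1300 (0.510%) without control replicate 1 and 2228 of 25965 windows (8.58%) at 100 kb, with none over the genes in either case. An unadjusted p under 0.05 was found for 7 of the 65 windows (10.8%) in each mutant, beside 48990 of 255057 (19.2%) in G9a cKO and 22952 (9.0%) in cDKO. All 4 mutant libraries lay above both controls in 9 of the 65 windows (13.8%), beside 10.3% of all windows, and below both in 5 (7.69%), beside 15.2%.

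**Figure D4:**
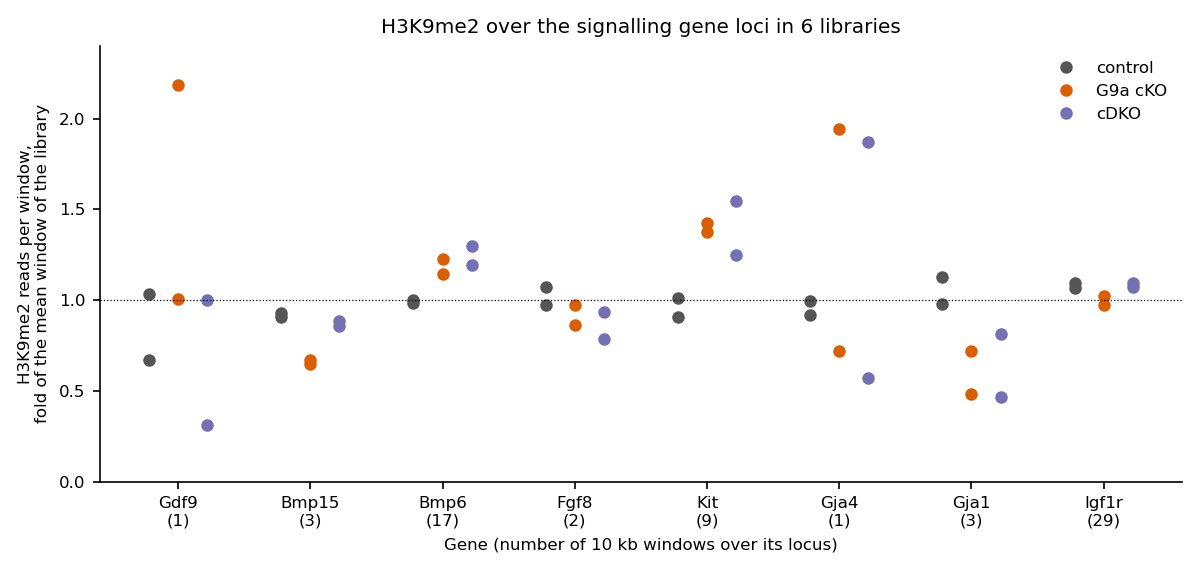
H3K9me2 over each gene in every library, as the fold of the library's mean 10 kb window. All 4 mutant libraries lie above both controls for Kit and Bmp6 and below them for Gja1, Bmp15 and Fgf8. The single-window genes Gdf9 and Gja4 scatter on few reads. How often spans of several windows separate in this way across the genome was not measured, and both controls are deeper than every mutant library.

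Over Kit, which spans 9 windows, the controls stood at 0.909 and 1.01 of the mean window, G9a cKO at 1.42 and 1.38 and cDKO at 1.25 and 1.54. All 4 mutant libraries were higher than both controls, on 51 to 97 reads against 214 and 650. The share of spans of 9 windows that do so was not measured. The largest difference lay in the window chr5:75630001-75640000, inside the locus, at 1.33 in G9a cKO (adjusted p = 0.112) and 1.44 in cDKO (adjusted p = 0.303). The first window of Kit, with the printed promoter (chr5:75570001-75580000), had 3 and 4 reads in G9a cKO and 2 and 9 in cDKO, and differences of -0.39 (adjusted p = 0.795) and -0.42 (adjusted p = 0.890). Kit RNA fell in cDKO and was not called in G9a cKO, each against the controls of its own title series. The H3K9me2 share of Kit stood at like values in both mutants. These share the same 2 controls, whose titles name no series. None of the Kit windows was called, and a link between the mark and the RNA was not tested. Over Bmp6 (17 windows) the controls stood at 0.998 and 0.985, G9a cKO at 1.23 and 1.14 and cDKO at 1.19 and 1.30. Over Gja1 (3 windows) they stood at 0.981 and 1.13, 0.720 and 0.485, and 0.468 and 0.812, on 6 to 17 reads in the mutants. Over Bmp15 (3 windows) the controls stood at 0.904 and 0.929, G9a cKO at 0.672 and 0.647 and cDKO at 0.883 and 0.860, on 8 to 18 reads in the mutants. Over Fgf8 (2 windows) they stood at 0.975 and 1.07, 0.864 and 0.971, and 0.935 and 0.788, on 8 to 12 reads in the mutants. Over Igf1r (29 windows), the longest of the genes, all libraries stood between 0.971 and 1.10. Its single windows differed both ways in G9a cKO, and none was called. They ran from -2.47 (chr7:67970001-67980000, adjusted p = 0.0820) to 1.11 (chr7:68010001-68020000, adjusted p = 0.0986). In cDKO these windows stood at -0.64 and 0.15. Gdf9 and Gja4 have 1 window each, with 2 to 48 and 4 to 71 reads, too few to show a moderate change. DNA methylation was not analysed here.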

How the data were processed

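The members and lists were chosen with earlier results of these data known. The deposited RNA table gives log2 RPM per assembled locus and the deposited H3K9me2 table log2 RPM per 10 kb window; neither header names the unit, which was read from the values. All values returned whole reads within 0.05 of a read, with an empty locus given 0.9 read by the authors. The submitters' processing notes name GRCm38, Trim Galore, Bowtie2, HISAT2 2.1.0 and Bismark 0.19.0. A count model had been foreseen; since the deposited values are log2, limma 3.58.1 (R 4.3.3; trend and robust) was fitted to group means over 38540 loci and 11 libraries, and over 255057 windows with a read in any of 6 libraries. The RNA fit was also run on simulated counts whose spread was set by level alone. These held no title series or title number effect, so that run cannot check the calls for either. Pathway genes were named if called in both mutants, or among the 2 largest called per list and mutant with over 3 reads in a library of each group; others are marked. The 2 loci most correlated with each detected member were named. Alternatives changed the offset, filter, centring, weights, moderation, controls and title number, and left out each library. In the H3K9me2 data, 4 columns matched no sample and were not used. Intervals are 95%.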

Additional observations from a re-analysis of the deposited data

Results flagged for a closer look

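The effects of the 2 mutants differed for Gdf9 (cDKO effect minus G9a cKO effect -0.242 on the log2 scale, limma adjusted p = 0.000753) and for Kit (-0.484, adjusted p = 0.003). For Gdf9 the GKAQ controls stood above the GKAO controls by 0.22, and the cDKO libraries stood at 3559 and 3882 RPM beside 3776 to 3874 RPM in the GKAO controls. For Kit the cDKO libraries, at 439 and 462.4 RPM, were below all 6 controls. Title series and mutant cannot be told apart beyond these values. No member had a group of 4 or more libraries in which 1 library could be tested as standing apart.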

How the results depend on the processing

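Kit and Gdf9 were lower in cDKO under all 19 alternatives and called in 18. The number of members called in cDKO, 2, was 0 without trend and robust weighting, 3 with the title number as a term, and 2 to 3 when libraries were left out 1 at a time. In the title number fit the cDKO effect rests on 1 pair of libraries with a shared number, and Bmp15 joined Gdf9 and Kit. The number called in G9a cKO, 0, was 1 with all controls pooled. For the difference between effects, 2 became 0 with log2(RPM + 1), with precision weights and without trend and robust weighting, and 1 with pooled controls, with the title number and, among left-out libraries (1 to 2), without cDKO replicate 1. Between the control series, 1 became 0 without trend and robust weighting. Pathway calls in G9a cKO, 5, were 1 with log2(RPM + 1), 1 without trend and robust weighting, 3 with precision weights, 8 with pooled controls and 3 to 5 with a library left out. Pathway calls in cDKO, 14, were 5, 6 and 7 with log2(RPM + 1), without trend and robust weighting and with the title number, and 11 to 16 with a library left out. H3K9me2 windows called over the members, 0, were 3 of 65 in G9a cKO and 1 of 65 in cDKO (4.62% and 1.54%) when empty windows were tested too, beside 11.8% and 7.54% of all windows, and 0 to 2 in G9a cKO with a library left out (2 without G9a cKO replicate 1). The cause of these shifts was not tested.

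Uncalled differences turned sign in 26 fits. With pooled controls Bmp15 in G9a cKO was 0.026, Bmp6 0.0458 and Fgf8 0.123, Fgf8 in cDKO was -0.105, and the differences between effects were -0.00482 (Bmp6), -0.228 (Fgf8) and -0.133 (Gja4). With the title number Bmp15 and Bmp6 in G9a cKO were 0.0083 and 0.0244, Gja1 in cDKO was -0.28 and its difference between effects -0.387. With precision weights Gja1 between control series was 0.038. With a library left out, G9a cKO values ran from -0.0515 to 0.0457 (Bmp15), -0.0748 to 0.103 (Bmp6), -0.0397 to 0.012 (Gdf9) and -0.0192 to 0.121 (Gja1), and Bmp15 in cDKO from -0.00738 to 0.301. Differences between effects ran from -0.000356 to 0.308 (Bmp15), -0.00379 to 0.173 (Bmp6), -0.000268 to 1.03 (Gja1) and -0.000371 to 0.165 (Gja4). Control series differences ran from -0.623 to 0.412 (Gja1) and -0.27 to 0.0909 (Igf1r).

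Depth limits Gja1 (3 to 19 reads), Fgf8 (23 to 60) and Igf1r (35 to 81). The filter of a read in at least 1 library was chosen after seeing the data.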
